A study of Mus musculus with 6 samples.

Results

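The B-class ephrins (Efnb1, Efnb2 and Efnb3) and the B-class Eph receptors (Ephb1, Ephb2, Ephb3, Ephb4 and Ephb6) were taken from the expression table by gene symbol. All 8 genes were found among the 25888 in the table. Levels are given as FPKM, sequenced fragments relative to the length of the gene and the size of the library, and 7 of the 8 reached the mean of 1 FPKM required for testing, as did 12650 genes in all. RNA came from C57BL/6 mouse embryos at embryonic day 9.5, from the anterior dorsal pericardial wall (the mesoderm behind the heart that feeds cells into it) and the outflow tract (the arterial pole of the heart tube), dissected and pooled. The 3 mutant libraries were Hand2flox/flox; Mef2c-AHF-Cre, in which Cre driven by the anterior heart field enhancer of Mef2c recombines floxed alleles of the transcription factor gene Hand2. The other 3 libraries were labelled only as controls, with no alleles named, and the sources used here do not say how many embryos made up a pool. The comparison asks how ligands and receptors of this family differed after loss of Hand2 in that lineage.

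Ephrin-B proteins are membrane-spanning ligands, and EphB proteins are receptor tyrosine kinases on neighbouring cells. Contact between the cells sends a signal into both: forward through the receptor's kinase, and in reverse through the ligand's cytoplasmic tail, whose end binds PDZ-domain proteins. The family is known for repulsion and boundary formation between cells, for guiding axons and neural crest cells, and for separating arteries from veins, where arterial endothelium carries ephrin-B2 and venous endothelium EphB4. Mouse embryos without Efnb2 or Ephb4 die with failed vessel remodelling and abnormal hearts.

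No B-class gene passed the test across all genes (limma on log2(FPKM + 1), Benjamini-Hochberg adjusted p under 0.05), in which 0.174% of the genes tested were called. At an unadjusted p under 0.05, 2 of the 7 tested were higher in mutants, Efnb1 and Ephb6, against 2.6% of all genes tested. The differences were small and mostly in 1 direction. Efnb1, Ephb2, Ephb3, Ephb4 and Ephb6 had mutant means 11.3% to 30.3% above the control means, Efnb2 was 3.15% above, and the mean of Efnb3 was lower, with a change of -19.4%. For Efnb1, Ephb3, Ephb4 and Ephb6, 4 of the 7 tested, all mutant libraries lay above all control libraries, which held for 5.44% of all genes tested. The median log2 fold change of the 7 was 0.19, beside -0.007 over all genes tested. In bulk tissue, fewer cells of a type and less RNA per cell cannot be told apart.

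**Figure D1:**
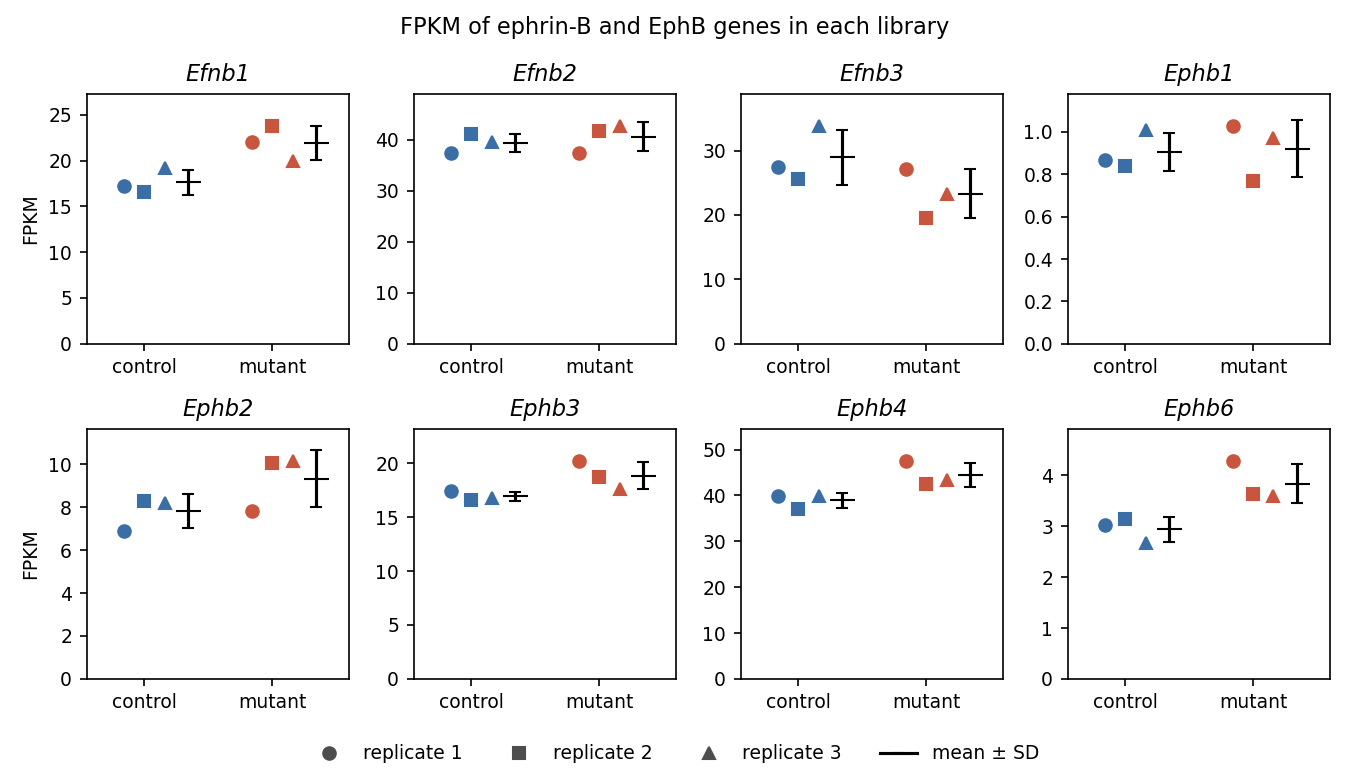
FPKM (vertical axes, each from 0) of the 8 genes in the 3 control (blue) and 3 mutant (red) libraries, with marker shapes for the replicate number and black bars for the mean ± SD. Mutant points lie above all control points for Efnb1, Ephb3, Ephb4 and Ephb6, from 2.67 to 3.14 FPKM in controls against 3.597 to 4.28 in mutants for Ephb6, and overlap for the other 4.

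Libraries of the same replicate number deviated together from their group means, so each gene was also compared within numbers, by a fit with the number as a block. That fit called 5.12% of all genes tested and none of the 7 (limma adjusted p from 0.0737 for Ephb2 to 0.678 for Efnb2). Within all 3 numbers the mutant library was the higher for 5 of the 7, Efnb1, Ephb2, Ephb3, Ephb4 and Ephb6, as for 20.5% of all genes tested. Efnb3 was the lower within all 3, as were 25.1% of all genes tested. On whole reads recovered from the FPKM values, voom with the block called 2 of the 7 higher, Ephb2 and Ephb6, where it called 3.76% of all genes tested higher, and none lower, against 6.03%. At an unadjusted p under 0.05 the blocked limma fit had 5 of the 7 higher, against 9.35% of all genes tested, and 1 lower, Efnb3, against 13.6%. The blocked 95% intervals of Efnb1, Ephb2, Ephb3, Ephb4 and Ephb6 lay above 0 and that of Efnb3 below 0, with no adjustment for the number of genes.

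**Figure D2:**
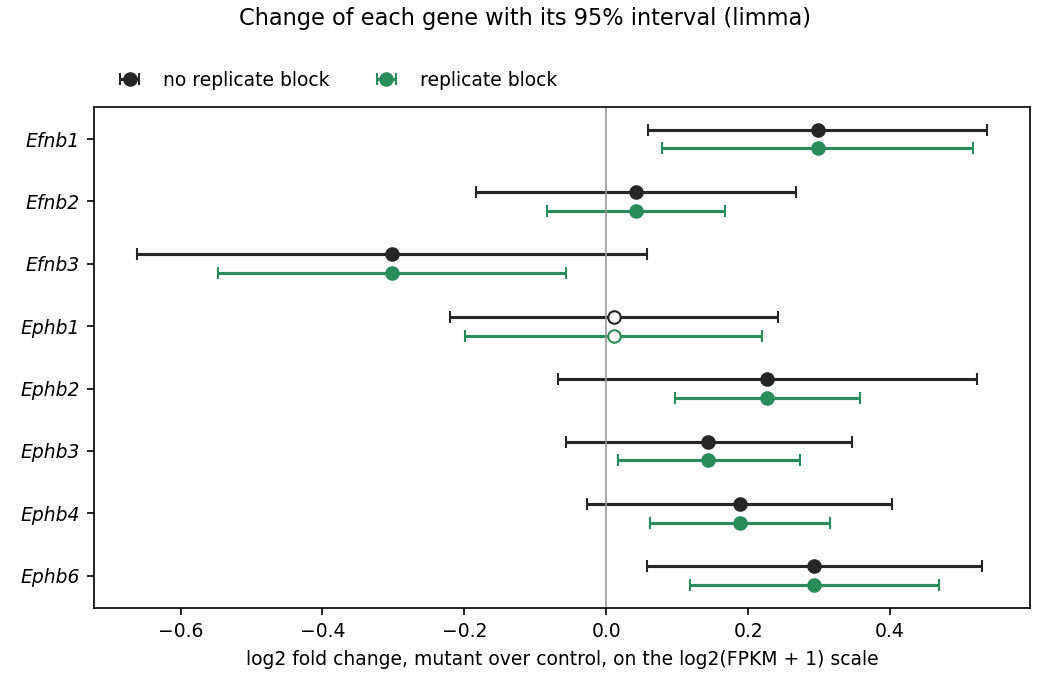
Log2 fold change of mutants over controls on the log2(FPKM + 1) scale (horizontal axis) for each gene, with its 95% interval from limma without (black) and with (green) the replicate number as a block. Ephb1, with open points, was under the expression minimum and comes from fits without it. The points run from -0.30 for Efnb3 to 0.30 for Efnb1, with Efnb2 at 0.04 and Ephb1 at 0.01.

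The ligands differ in where they are best known to act, but their tails are alike. The final 102 coding bases of each, stop codon included, are shown because they encode the end of the tail that carries the reverse signal. Capitals mark the 80 bases (78.4%) identical in all 3 genes, and the sequences are GENCODE M21 transcripts on GRCm38, with Efnb1 on chromosome X, Efnb2 on chromosome 8 and Efnb3 on chromosome 11.
Efnb1: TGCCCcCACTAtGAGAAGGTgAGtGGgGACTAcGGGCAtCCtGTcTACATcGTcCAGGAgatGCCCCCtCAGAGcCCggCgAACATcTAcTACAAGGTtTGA
Efnb2: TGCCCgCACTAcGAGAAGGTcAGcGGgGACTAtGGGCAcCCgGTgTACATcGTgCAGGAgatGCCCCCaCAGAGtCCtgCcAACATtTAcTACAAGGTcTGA
Efnb3: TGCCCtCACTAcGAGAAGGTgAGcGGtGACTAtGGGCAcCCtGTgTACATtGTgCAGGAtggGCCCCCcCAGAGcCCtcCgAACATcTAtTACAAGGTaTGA
Over the whole coding sequences, the longest run identical between any pair of the ligand genes was 22 bases, between Efnb1 and Efnb3. Among the receptor genes it was 38 bases, between Ephb1 and Ephb3. Within these coding sequences, a read longer than 38 bases therefore differs between any pair of ligand genes and any pair of receptor genes. Ligand genes were not compared with receptor genes, and untranslated parts were not compared. The sources used here do not give the read length.

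Efnb1 encodes ephrin-B1, an X-linked ligand that neural crest cells need, and whose loss in humans causes craniofrontonasal syndrome. The gene (ENSMUSG00000031217) maps on GRCm38 to the plus strand of chromosome X (99136130 to 99148991), in 6 exon blocks after merging its transcripts. Its level was 17.2, 16.5 and 19.2 FPKM in control 1, 2 and 3, against 21.98, 23.7 and 19.98 in mutant 1, 2 and 3. Every mutant library was above every control, with control 3 and mutant 3 the closest. The means were 17.6 ± 1.37 and 21.9 ± 1.88 FPKM (SD, n = 3 each). The log2 fold change was 0.30 (95% interval 0.06 to 0.54), with a limma adjusted p of 0.562 without the block and 0.122 with it. By the two-sided exact permutation test p was 0.1, the smallest that 3 against 3 libraries allow, and it was the same for Ephb3, Ephb4 and Ephb6. It was 0.2 for Efnb3, 0.3 for Ephb2, 0.6 for Efnb2 and 0.9 for Ephb1 in the same exact test. Within numbers 1, 2 and 3 the differences on the log2 scale were 0.34, 0.50 and 0.06.

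Efnb2 encodes ephrin-B2, the arterial ligand, also found in the endocardium and outside vessels in the embryo. The gene (ENSMUSG00000001300) maps to the minus strand of chromosome 8 (8617434 to 8661242), in 5 exon blocks. Control libraries 1 to 3 had 37.5, 41.2 and 39.5 FPKM, against 37.4, 41.8 and 42.7 for the mutant libraries. The groups overlapped, and in both the library numbered 1 was the lowest. Its log2 fold change was 0.04 (95% interval -0.18 to 0.27, and -0.08 to 0.17 with the block). The unblocked interval leaves room for a change in either direction of up to that size.

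Efnb3 encodes ephrin-B3, known from the midline of the neural tube, where it stops growing axons from crossing. The gene (ENSMUSG00000003934) maps to the minus strand of chromosome 11 (69554092 to 69560205), in 5 exon blocks. Control libraries 1 to 3 had 27.4, 25.5 and 33.8 FPKM, against 27.2, 19.5 and 23.3 for the mutant libraries. Mutant libraries 2 and 3 were below all controls, and mutant library 1 lay among them. The log2 fold change was -0.30 (95% interval -0.66 to 0.06, limma adjusted p = 0.821), and the spread among libraries, with a CV of 15% in controls and 16.4% in mutants, was the widest of the 8 genes in both groups. The value was -0.19 without control replicate 3, -0.19 without mutant replicate 2 and -0.56 with array weights. Array weights count a library less the more it departs from the fitted group means, so they come from these same values. Within numbers 1, 2 and 3 the differences of Efnb3 on the log2 scale were -0.015, -0.37 and -0.52. Without both libraries numbered 1, the pair with the smallest difference, the blocked fit called Efnb3 lower (log2 fold change -0.45, limma adjusted p = 0.0396). That fit called 1.94% of the genes it tested lower. Efnb3 was not called without number 2 (-0.27, limma adjusted p = 0.301) or without number 3 (-0.19, limma adjusted p = 0.444). Control replicate 3, the highest library, also held yolk sac and liver endoderm transcripts. That list of 7 markers summed to 571 FPKM there and to at most 5.02 in the other libraries. The 9 neural tube and neuron markers, with Sox1 and Olig2 at 0 in some libraries, summed to 19.3 to 28.2 FPKM in controls and to 22.9 to 35.5 in mutants. Most of this sum was Sox2 (means of 17.9 and 23.5 FPKM in controls and mutants) and Tubb3 (6.06 and 6.13). The other markers of the list averaged under 1 FPKM in both groups. The part of either marker list in the values of Efnb3 was not tested.

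Ephb4 encodes the venous receptor of ephrin-B2, and over the 6 libraries it had the highest mean of the 8 genes (41.7 FPKM, against 40.0 for Efnb2, which was the higher in the control mean). The gene (ENSMUSG00000029710) maps to the plus strand of chromosome 5 (137350109 to 137378669), in 18 exon blocks. Control libraries 1 to 3 had 39.8, 37.1 and 39.8 FPKM, against 47.5, 42.5 and 43.5 for the mutant libraries. All mutant libraries were above all controls, with the largest step at number 1. The means were 38.9 ± 1.53 and 44.5 ± 2.63 FPKM (SD, n = 3 each). Mutants over controls gave a log2 fold change of 0.19 (95% interval -0.03 to 0.40), with a limma adjusted p of 0.804 without the block, 0.104 with it and 0.0505 by voom with the block. The 14 endothelial and endocardial markers, which include Cdh5 and Pecam1, had a lower sum in mutants, with 180 to 210 FPKM over controls against 143 to 166. In that list 6 fell with the block and none rose, none passed without it (limma; before adjustment p was under 0.05 for 7 lower), and no marker was at 0. Of all 12650 genes tested, 468 fell with the block, and 546 were lower at an unadjusted limma p under 0.05. Set against the endothelial and endocardial sum, Ephb4 came to 19.95% ± 0.87 for controls and 28.9% ± 0.70 for mutants (SD, n = 3 each), with no overlap, and Efnb2 was 20.3% ± 2.51 and 26.5% ± 3.48, with overlap. Since that sum was lower in mutants, a gene with an unchanged level would also rise in this ratio. For Ephb4 all mutants were above all controls, and for the sum all were below. The ratio of Ephb4 therefore could not overlap, and it adds nothing to those separations. How much of either transcript came from endothelial cells was not measured.

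Ephb2 and Ephb3 encode receptors that can stand in for each other in mice, where loss of both disturbs the palate, axon tracts and vessels. Ephb2 (ENSMUSG00000028664) maps to the minus strand of chromosome 4 (136647539 to 136835988) in 16 exon blocks, and Ephb3 (ENSMUSG00000005958) to the plus strand of chromosome 16 (21204755 to 21223305) in 15. Ephb2 had 6.89, 8.31 and 8.21 FPKM in the controls, against 7.81, 10.05 and 10.1 for the mutants. Its groups overlapped, with both libraries numbered 1 low, and within numbers the mutant was higher by 0.16, 0.25 and 0.28 on the log2 scale. For Ephb2 the log2 fold change was 0.23 (SE 0.12 without the block and 0.05 with it). Its limma adjusted p was 0.848 without the block and 0.0737 with it, and 0.017 by voom with the block. Ephb3 had 17.4, 16.6 and 16.8 FPKM in the controls, against 20.2, 18.7 and 17.7 for the mutants. Its groups did not overlap, although control 1 and mutant 3 were close. For Ephb3 the log2 fold change was 0.14 (95% interval -0.06 to 0.35, limma adjusted p = 0.873 without the block and 0.176 with it).

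Ephb6 encodes a receptor whose kinase is inactive, so that it acts with other Eph receptors. The gene (ENSMUSG00000029869) maps to the plus strand of chromosome 6 (41605482 to 41620509), in 18 exon blocks. Control libraries 1 to 3 had 3.03, 3.14 and 2.67 FPKM, against 4.28, 3.64 and 3.597 for the mutant libraries. The groups did not overlap, and the ratio of the means, 1.30, was the highest of the 8. With 266 to 371 reads per library, counting alone gives an error of 5.46%, below the CV of 8.35% in controls and 9.96% in mutants. The log2 fold change was 0.29 (95% interval 0.06 to 0.53), with a limma adjusted p of 0.565 without the block, 0.0808 with it and 0.0434 by voom with the block.

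Ephb1, a receptor known for turning axons at the optic chiasm, was the gene under the expression minimum. The gene (ENSMUSG00000032537) maps to the minus strand of chromosome 9 (101922128 to 102354693), in 18 exon blocks. Control libraries 1 to 3 had 0.87, 0.84 and 1.01 FPKM, against 1.03, 0.77 and 0.97 for the mutant libraries. The groups overlapped, on 131 to 176 reads per library. In the fit without a minimum the log2 fold change was 0.01 (95% interval -0.22 to 0.24, limma adjusted p = 1).

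Because FPKM is per length, levels of different genes can be set side by side. The length behind the values was the merged exon length for 6 of the 8, among them Ephb2 with 12608 bases, and shorter than it for Ephb1 (6487 against 7002 bases) and Ephb3 (6289 against 6641). A gene with a long and little used exon is placed too low. By mean level over the 6 libraries the order was Ephb4 (41.7 FPKM), Efnb2 (40.0), Efnb3 (26.1), Efnb1 (19.8), Ephb3 (17.9), Ephb2 (8.57), Ephb6 (3.39) and Ephb1 (0.91). Ephb4 and Efnb2 overlapped in both groups, as did Efnb1 and Ephb3. Efnb3 lay above Efnb1 in every library of the controls (28.9 against 17.6 FPKM) and overlapped it in the mutants (23.3 against 21.9). The ratio of Efnb1 to Efnb3 was 0.63, 0.65 and 0.57 in controls and 0.81, 1.22 and 0.86 in mutants, without overlap. It sets a gene with all mutants above all controls against the member with a lower mutant mean. The groups overlapped for Ephb4 over Efnb2 (means of 0.99 in controls and 1.10 in mutants) and for Ephb2 over Ephb3 (0.46 and 0.50). These ratios carry no test.

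The summed level of the 3 ligands came to 85.9 ± 5.68 FPKM for controls and 85.9 ± 0.74 for mutants (SD, n = 3 each), and the groups overlapped. Efnb1 made up 19.8% to 20.9% of that sum in controls and 23.3% to 27.9% in mutants. The shares of Efnb2 (means of 45.95% in controls and 47.3% in mutants) and Efnb3 (33.6% and 27.1%) overlapped between the groups. The 5 receptors summed to 68.0, 66.0 and 68.5 FPKM in controls and 80.8, 75.7 and 75.8 in mutants, without overlap. Receptor shares overlapped between the groups, with Ephb4 at 57.6% ± 1.21 of the sum in controls and 57.4% ± 1.29 in mutants and Ephb3 at 25.1% ± 0.55 and 24.3% ± 0.91. The ratio of summed receptors to summed ligands was 0.74 to 0.83 in controls and 0.88 to 0.93 in mutants. These sums describe the members and carry no test.

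**Figure D3:**
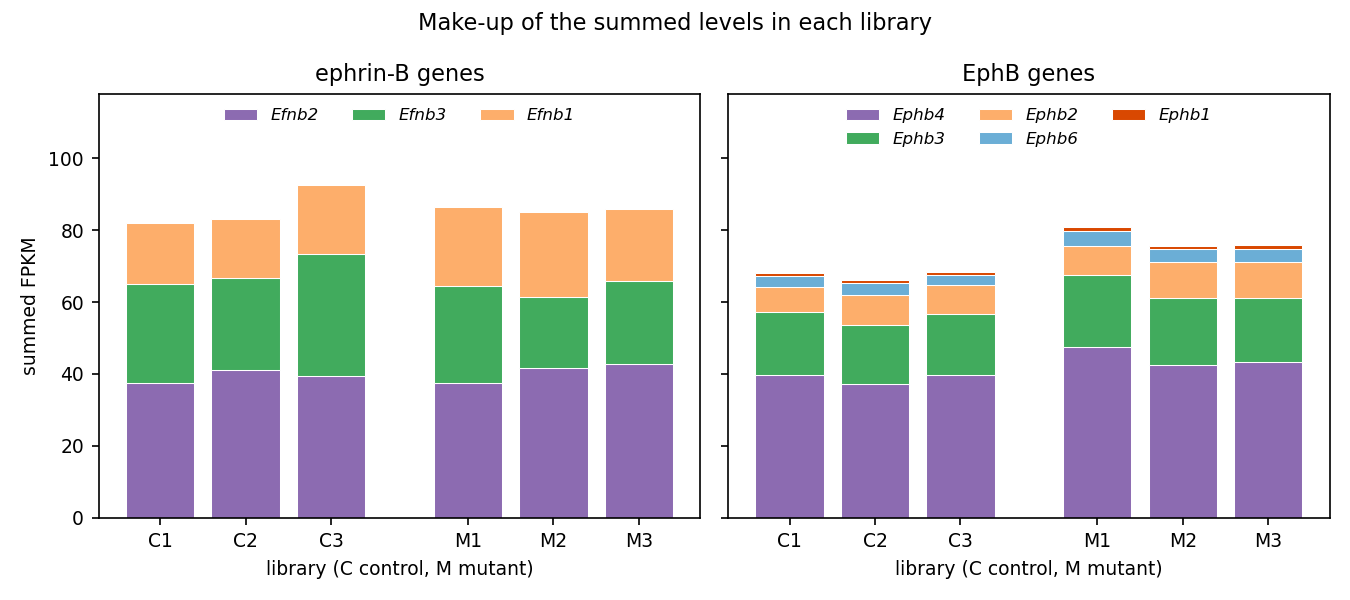
Summed FPKM (vertical axis) of the ephrin-B genes (left) and the EphB genes (right) in each control (C) and mutant (M) library, stacked by gene. Ligand sums lie at 82.1 to 92.5 in controls and 85.1 to 86.5 in mutants, and receptor sums at 66.0 to 68.5 and 75.7 to 80.8.

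The 250 bases before the RefSeq start (GRCm38.p6) are shown for the 4 genes whose mutant libraries all lay above the controls. That non-overlap held for 5.44% of all genes tested. The windows of Ephb3 and Ephb6 end past the gene starts given above, which come from GENCODE M21. Of the 8 genes, 7 matched the promoter table. Both strands were searched for the general E-box CANNTG, to which basic helix-loop-helix factors such as Hand2 bind, for its variant CATCTG and for TGGGAA, the core of the Notch effector RBPJ's site. CATCTG is contained in CANNTG. Capitals mark the matches.
Efnb1, chrX:99135811-99136060, plus strand: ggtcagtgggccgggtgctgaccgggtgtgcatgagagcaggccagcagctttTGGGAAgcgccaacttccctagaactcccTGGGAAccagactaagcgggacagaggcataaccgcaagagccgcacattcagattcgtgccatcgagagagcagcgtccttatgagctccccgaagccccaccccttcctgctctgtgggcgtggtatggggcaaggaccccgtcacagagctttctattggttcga
Ephb3, chr16:21204545-21204794, plus strand: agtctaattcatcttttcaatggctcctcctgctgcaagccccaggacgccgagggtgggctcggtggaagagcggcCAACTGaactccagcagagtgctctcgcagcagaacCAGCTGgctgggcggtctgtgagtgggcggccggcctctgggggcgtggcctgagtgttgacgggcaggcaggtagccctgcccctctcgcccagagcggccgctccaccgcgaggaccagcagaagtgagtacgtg
Ephb4, chr5:137349859-137350108, plus strand: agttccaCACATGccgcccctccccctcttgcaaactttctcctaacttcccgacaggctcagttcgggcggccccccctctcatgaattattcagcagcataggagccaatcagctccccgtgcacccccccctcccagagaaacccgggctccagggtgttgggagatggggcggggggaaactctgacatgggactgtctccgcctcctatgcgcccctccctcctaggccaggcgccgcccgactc
Ephb6, chr6:41605261-41605510, plus strand: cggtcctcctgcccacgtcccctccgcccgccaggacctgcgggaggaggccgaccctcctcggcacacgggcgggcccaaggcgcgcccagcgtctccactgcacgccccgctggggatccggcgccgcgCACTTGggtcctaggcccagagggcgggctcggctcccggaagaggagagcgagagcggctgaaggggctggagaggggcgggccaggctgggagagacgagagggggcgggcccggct
CANNTG was present in 66.2% of 32851 promoter windows of this length and in 5 of the 7, with 2 matches in Ephb3, 1 each in Efnb2, Ephb2, Ephb4 and Ephb6 and none in Efnb1 and Ephb1. CATCTG, found in 14.4% of windows, was in none of the 7. TGGGAA, found in 21.6% of windows, occurred in Efnb1 alone of the 7, with matches beginning 197 and 168 bases before the start. A match is a description of these letters and not a binding site.

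The A-class branch of the family, whose ligands are held by a lipid anchor, was described from a list of 14 genes, of which 9 were tested. None passed without the block (limma; before adjustment p was under 0.05 for 1 higher and 1 lower), and with it 1 rose and 1 fell. Over all 12650 genes tested, limma had 329 higher and 546 lower at unadjusted p under 0.05, and 180 and 468 called with the block. Efna1 fell, from 29.3 ± 4.41 to 21.6 ± 2.30 FPKM (SD, n = 3 each, log2 fold change -0.41, limma adjusted p = 0.517 without the block and 0.0148 with it). Efna5 rose, from 7.06 ± 1.18 to 9.10 ± 1.09 FPKM (log2 fold change 0.33, limma adjusted p = 0.705 and 0.0379). The receptor gene Epha4 averaged 4.34 FPKM over controls and 5.04 over mutants, and the ligand gene Efna2 35.2 and 41.3, neither past either fit. The median log2 fold change of the 9 was 0.12, and 8 of them were above 0, beside 6065 of the 12650 genes tested.

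Proteins that bind or relay ephrin-B and EphB signals made up a list of 36 genes, of which 35 were tested. None passed without the block (limma; before adjustment p was under 0.05 for 2 lower) and 1 fell with it, Ptpn11, which encodes the phosphatase SHP2 (41.3 to 34.01 FPKM, limma adjusted p = 0.742 without the block and 0.038 with it). Of all 12650 genes tested, 546 were lower at an unadjusted limma p under 0.05, and 468 fell with the block. Pard6b, a polarity protein gene, averaged 18.3 and 14.9 FPKM over controls and mutants. Grip2, whose PDZ-domain protein binds ephrin-B tails, had 1.52 and 0.96. Neither passed in the limma fits, and both were lower by voom with the block (adjusted p = 0.0394 for Pard6b and 0.00484 for Grip2). That voom fit called 1 higher and 4 lower of the list, against 3.76% and 6.03% of all genes tested. The higher one was the tyrosine kinase gene Abl1 (32.2 and 36.8 FPKM), and the fourth lower one Rgs3 (6.31 and 5.32), whose PDZ-domain protein binds ephrin-B, both named after their values were seen. The median over the list was -0.01, with 15 of the 35 above 0.

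Arterial and venous genes were mostly below 0, with a median log2 fold change of -0.12 and 2 above 0 for the 12 arterial genes tested, and -0.16 and 2 above 0 for the 7 venous genes. These medians carry no test. Over all 12650 genes tested, limma had 329 higher and 546 lower at unadjusted p under 0.05, and 180 and 468 called with the block. Of the 12 arterial genes none passed without the block (limma; before adjustment p was under 0.05 for 1 higher and 4 lower), and with it Cxcr4 rose and Gja5 and Nrp1 fell. Gja5, a gap junction gene of arteries and atria, averaged 8.09 FPKM over controls and 5.67 over mutants (limma adjusted p = 0.358 without the block and 0.0314 with it). Nrp1, a VEGF and semaphorin coreceptor gene, had 15.3 and 12.05 (0.047 with the block), and the chemokine receptor gene Cxcr4 11.9 and 15.97 (0.0426 with the block). Dll4, the arterial Notch ligand gene, had 6.44 and 5.19 and passed in neither fit. Of the 7 venous genes none passed without the block (limma; before adjustment p was under 0.05 for 2 lower), and with it Nr2f2 rose and Nrp2 and Emcn fell. Emcn is in both the venous and the endothelial and endocardial lists, so its fall is counted in each. Nrp2, the venous and lymphatic neuropilin gene, averaged 21.8 ± 4.50 FPKM over controls and 9.43 ± 1.88 over mutants (SD, n = 3 each, log2 fold change -1.12, limma adjusted p = 0.124 without the block and 0.00204 with it). Nr2f2, a transcription factor gene of vein identity, had 6.03 and 8.82 FPKM, the endothelial sialomucin gene Emcn 5.21 and 3.54, and the apelin receptor gene Aplnr, past neither fit, 5.48 and 8.14.

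**Figure D4:**
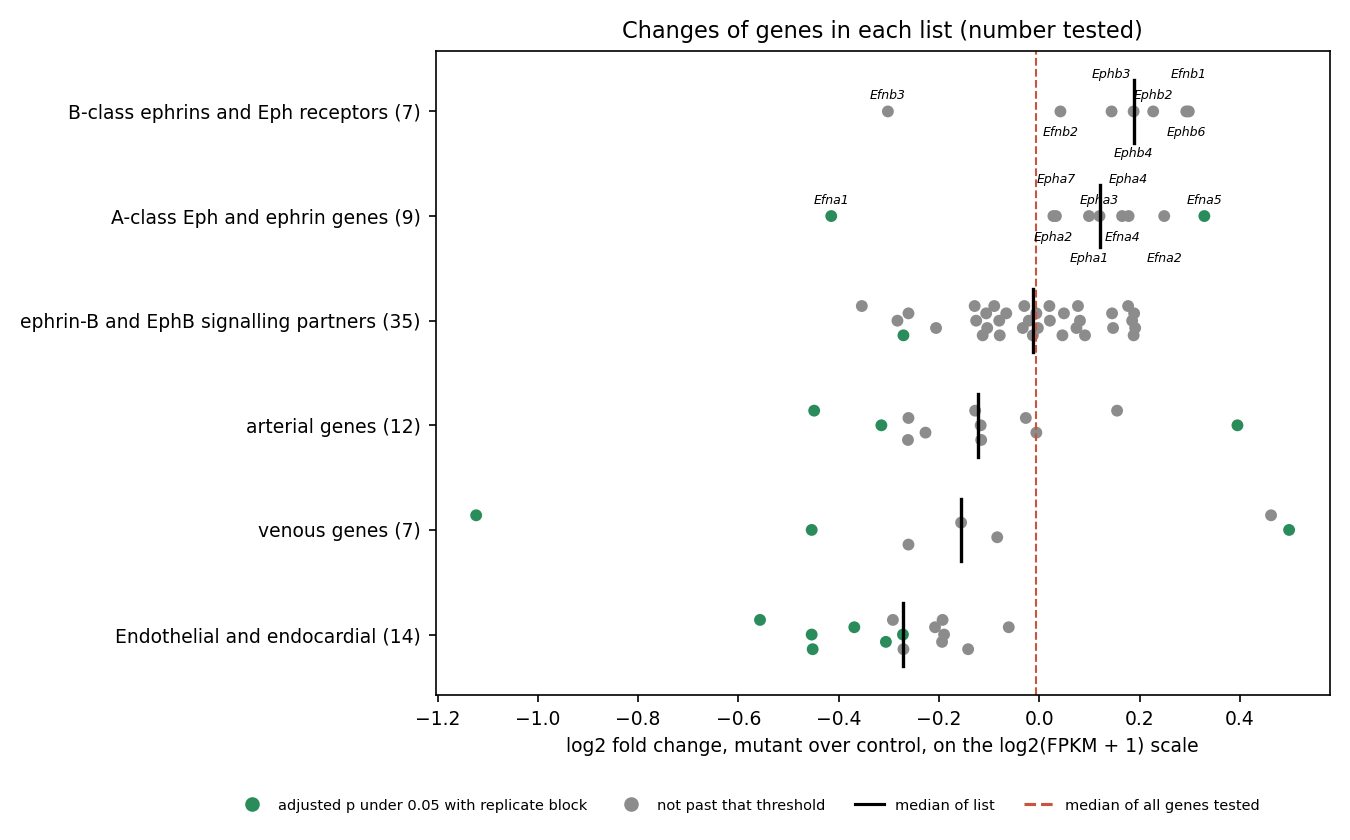
Log2 fold change of mutants over controls on the log2(FPKM + 1) scale (horizontal axis) for the tested genes of 6 lists, with the number tested in brackets. Black ticks are list medians, from 0.19 for the B-class to -0.27 for endothelial and endocardial genes, the dashed line is the median of all genes tested, and green points passed with the replicate block (none of the B-class).

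Hand2 itself averaged 87.3 ± 26.3 FPKM over controls against 24.9 ± 8.69 over mutants (SD, n = 3 each) with no overlap, the direction the labels give. Recovered reads summed to between 23226307 and 30184372 per library, and at 1381 reads or more per library for Efnb1, Efnb2, Efnb3, Ephb2, Ephb3 and Ephb4, counting error was 1.17% to 2.36%, below the spread between libraries. Markers of the dissected tissue were present in every library. The 10 cardiac muscle markers summed to 5086 to 8067 FPKM in controls and 3321 to 4985 in mutants, and the 8 second heart field markers to 124 to 153 and 178 to 261, in neither case with a marker at 0. Tbx1 was the largest part of the second heart field sum (means of 65.1 and 116.9 FPKM), while Isl1 was lower in mutants (19.95 and 15.8). With the block 3 of these 8 rose and 1 fell (limma), against 180 and 468 of all 12650 genes tested. The 8 neural crest markers summed to 158 to 254 and 209 to 273, most of it Twist1 (means of 158.7 and 192.4 FPKM). Sox10 averaged 4.12 and 3.43, and 5 of the 7 neural crest markers tested had a log2 fold change above 0. The part of these shifts in the B-class values was not tested.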

How the data were processed

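RNA of pooled tissue was sequenced from NEBNext Ultra libraries, per the labels' protocols. The authors deposited 1 table of FPKM values, 6 libraries in columns. The submitters' processing notes name bcl2fastq 2.18, STAR 2.5.1b, Cufflinks 2.2.1 and the build mm8, while the gene lengths behind the deposited FPKM equal merged exons of GENCODE M21 (GRCm38) for 78.9% of genes, so coordinates are given on GRCm38. The sources used here give no annotation, strand setting or filter. Without strand, reads of overlapping genes cannot be told apart, but Ephb1 (152 bases, Gm26846) and Ephb4 (33 bases, Zan) were the only B-class genes sharing exonic bases with another gene, each of which had at most 0.053 FPKM.

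Symbols came from GENCODE M21, with 129 IDs unmatched. The test was limma 3.58.1 (R 4.3.3), two-sided, with a mean-variance trend, on log2(FPKM + 1) of genes with a mean of at least 1 FPKM, adjusted by Benjamini-Hochberg over all 12650. This scale understates changes of low genes. Whole reads were recovered as multiples of the FPKM of 1 read (within 0.001) for voom with TMM factors. For genes of other lengths, including Ephb1 and Ephb3, the smallest length giving whole reads was used. Intervals are 95% and cover this spread only.

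Whether libraries came from separate litters is not stated, so p-values measure the spread between these libraries. The titles number both groups 1 to 3. Deviations from the group means correlated at 0.73, 0.44 and 0.44 between libraries numbered 1, 2 and 3, so the numbers were taken as pairs. Control 2 and mutant 3 also correlated, at 0.31, so the pairing rests on the data and not on the labels. The members and gene lists were chosen with earlier results of these data known. Named genes were the 8 members, Hand2, up to 4 genes with the smallest p in each of the A-class, partner, arterial and venous lists (1 partner is not reported here), and the 2 genes most correlated with each tested member.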

Additional observations from a re-analysis of the deposited data

How the results depend on the processing

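Of 120 values of the 8 genes under other settings, 117 kept their direction and their side of the threshold, 3 passed it and none reversed. Recovered reads with the replicate block called Ephb2 (0.267) and Ephb6 (0.385). The third was Efnb3 without number 1 in either group (-0.445, with the block). Over all settings the log2 fold change was 0.20 to 0.42 for Efnb1, 0.01 to 0.10 for Efnb2, -0.56 to -0.19 for Efnb3, 0.15 to 0.34 for Ephb2, 0.10 to 0.19 for Ephb3, 0.14 to 0.23 for Ephb4 and 0.23 to 0.39 for Ephb6. Ephb1 had 1 alternative, the replicate block without a minimum, added after seeing the data (0.01).

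Counts over all genes moved most, from 3 higher and 19 lower. They were 180 and 468 with the replicate block, 193 and 349 with array weights, 476 and 763 on recovered reads with the block, and 5 and 3 with no minimum. Leaving out 1 library gave 0 to 2 higher and 0 to 2 lower, and without mutant replicate 2 none was called by limma (before adjustment p was under 0.05 for 176 higher and 311 lower genes). Leaving out both libraries of a number, with the block, gave 94, 54 and 80 higher and 246, 229 and 210 lower for numbers 1, 2 and 3. No minimum with the block gave 4 and 21, so the blocked calls depend on the minimum. The cause was not tested.

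Counts for the B-class, A-class, partner, arterial and venous lists were all 0 without the block, also with any 1 library left out, array weights excepted. Of these alternatives, marker lists were run only under the replicate block and under recovered reads with the block. With the replicate block the A-class list had 1 higher and 1 lower, signalling partners 1 lower, arterial genes 1 and 2, and venous genes 1 and 2. On recovered reads with the block the B-class had 2 higher, the A-class 1 and 1, partners 1 and 4, arterial 1 and 2, and venous 1 and 2. Array weights gave 1 lower A-class gene, 1 higher and 3 lower arterial and 2 lower venous genes. No minimum with the block gave 1 lower venous gene. Without both libraries of a number, each count was 0 to 1, except venous genes lower, which was 1 to 2. Depth limits Ephb1 most, with 131 to 176 reads per library.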

Other observations

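The genes most like each B-class gene over the 6 libraries, by Pearson's r of log2(FPKM + 1) among protein-coding genes tested, are given as a description. With 6 points that share library composition, many genes reach a high r. For Efnb2 they were Snrnp200 and Aagab (r = 0.997 each), and 150 genes had r over 0.95. For Ephb2 they were Tinf2 (0.996) and Gtf3c1 (0.995), with 92 genes over 0.95. For Efnb1, Poli (0.989) and Slc19a1 (0.984) came first, for Efnb3 Zcchc24 (0.989) and Emilin2 (0.986), and for Ephb3 the calcium channel gene Cacna1g (0.990) and the collagen gene Col16a1 (0.987). Ephb4 was most like Pex5 (0.984) and Gpr50 (0.980), and Ephb6 most like Cyren and Mex3b (0.995 and 0.993). For these 5 genes 15 to 27 genes had r over 0.95.

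Among the B-class genes themselves, Ephb3, Ephb4 and Ephb6 followed each other over the 6 libraries, with r of 0.92 for Ephb3 and Ephb4, 0.90 for Ephb3 and Ephb6 and 0.84 for Ephb4 and Ephb6. Efnb2 and Ephb2 had r = 0.90, and both were lowest in the libraries numbered 1 of each group. Efnb1 had r = 0.775 with Ephb3 and 0.776 with Ephb4. Efnb3 had a negative r with Efnb2 (-0.58), Ephb2 (-0.67) and Ephb6 (-0.55), and a positive one with Ephb1 (0.68). Group and replicate number are both mixed into these values, so they describe the libraries only.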
